A study of Homo sapiens with 8 samples.

Results

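Guidance genes encode the secreted and membrane-bound cues, and their receptors, that steer growing axons and migrating cells. The set described here holds the SEMA3 to SEMA7 semaphorins, the plexins, the neuropilins with the related DCBLD and PLXDC genes, the ephrins and Eph receptors, and the SLIT, ROBO, netrin and UNC5 families. They were taken by gene symbol, without antisense transcripts or pseudogenes, with the netrin-G genes NTNG1 and NTNG2 counted as netrins, and 58 of the 15982 genes in the count table belonged to the set. RNA was sequenced from 143BTK-, an osteosarcoma line without thymidine kinase, after transfection with a mimic of hsa-miR-101-3p (called miR-101 below, 4 libraries) or with a scrambled mimic as negative control (4 libraries). Cells of both groups grew without glucose, in 10 mM galactose with 5% dialysed serum and uridine. Each 10 cm dish received 80 pmol of mimic at the start and again at 48 h, and was harvested at 120 h. The replicates of a group came from independent transfections of this line, and everything below is a statement about that line. Total counts ran from 17603054 to 20160267 per library.

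Semaphorins are secreted or membrane-bound ligands that signal mainly through plexins, receptors whose cytoplasmic part acts on small GTPases. Class 3 semaphorins bind neuropilins, which act as co-receptors with plexins. Ephrins are membrane-bound ligands of the Eph receptor tyrosine kinases, so this signal passes between touching cells and can run in both directions. Slit proteins are secreted ligands of Robo receptors, and netrins are laminin-related ligands whose repulsive signal runs through UNC5 receptors. In bone these families are known for signalling between osteoblasts and osteoclasts and for guiding vessels and nerves.

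A microRNA acts mainly through pairing of its seed, bases 2 to 8, with the 3′ UTR of an mRNA. The mature sequence of the mimicked microRNA is given first, from RefSeq, with the seed in capitals, because the sites printed after it are its reverse complement.
hsa-miR-101-3p: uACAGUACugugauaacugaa
Sites were searched on the transcript strand of the longest annotated 3′ UTR (GENCODE release 29, GRCh38, the assembly named hg38 in the submitters' processing notes). An 8mer is GTACTGTA, a 7mer-m8 is GTACTGT without the final A, and a 7mer-A1 is TACTGTA without the first G, so each 8mer contains both shorter matches and was counted only as an 8mer. The sites of DCBLD2, the member with the most matches and with the largest fall, are shown with flanking bases in lower case.
DCBLD2, 7mer-A1, chr3:98799127-98799155, minus strand: ctgtttgatacTACTGTAgaacactattt
DCBLD2, 7mer-m8, chr3:98798980-98799008, minus strand: aataacgcacgGTACTGTtcttgaaatac
DCBLD2, 7mer-A1, chr3:98798443-98798471, minus strand: ttctaagggaaTACTGTAaacatgaccca
DCBLD2, 8mer, chr3:98796111-98796140, minus strand: tacctcggcatGTACTGTAgtcactcagta
The other members with an 8mer are shown because they hold the same core letters as DCBLD2 and did not pass the test.
EFNA5, 8mer, chr5:107378232-107378261, minus strand: actattgttttGTACTGTActttcttgggt
NRP1, 8mer, chr10:33179532-33179561, minus strand: ttctttttaaaGTACTGTAgcctcagtact
PLXNA1, 8mer, chr3:127035273-127035302, plus strand: gccccagtgggGTACTGTAcagttaactga
ROBO2, 8mer, chr3:77646560-77646589, plus strand: agggagtttctGTACTGTAagctagattgg
SEMA3A, 8mer, chr7:83959449-83959478, minus strand: tgcttttggaaGTACTGTAtatcctcacat
The called members that were higher and held a match, SEMA6D and PLXNC1, each had a single 7mer-A1.
SEMA6D, 7mer-A1, chr15:47773021-47773049, plus strand: taatgacaataTACTGTAaataccacatg
PLXNC1, 7mer-A1, chr12:94306438-94306466, plus strand: ctatccagttaTACTGTAgtctttttagt

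Of the 58 guidance genes, 57 had enough counts to be tested and 12 passed the test, 9 higher and 3 lower with miR-101. A gene was called when its adjusted p was under 0.05 in edgeR's quasi-likelihood test with Benjamini-Hochberg adjustment over all 15905 genes tested, of which 1053 (6.62%) were called, 3.3% higher and 3.32% lower. A fit that also took the replicate number as a block called 1676 genes (10.5%; 5.55% higher and 4.99% lower), among them 16 members, 11 higher and 5 lower. With replicates 1 and 2 of each group summed, 4 of the 12 calls remained (DCBLD2, PLXDC2, EPHA3 and SEMA6D) and the other 8 were lost, against a background of 1.09%. The other fits over 8 separate libraries called the same 12 members or added to them. These were edgeR with DESeq2's size factors (12 members, background 6.61%), without a filter on low counts (12 members, 6.59%), with at least 1 CPM in 4 libraries (12 members, 7.1%), limma-voom (12 members, 6.66%) and DESeq2 (14 members, 10.8%), which added EPHB1 and PLXNA2. The median log2 fold change (miR-101 over negative control) of the tested members was near 0, at -0.002, beside -0.005 over all tested genes, with 28 members above 0 and 29 below. In 17 members, the 12 called ones and EFNB3, EPHA2, PLXNA2, SLIT1 and UNC5C, the values of the groups did not overlap, which held for 15.1% of all tested genes. Another 13 members had an unadjusted p under 0.05 without being called, 5 higher and 8 lower. Over all tested genes 22.3% had such a p, 11.4% higher and 10.9% lower. These shares include the called genes, so they are not a like background for the 13. The remaining 32 tested members had log2 fold changes between -0.66 and 0.55 and adjusted p values between 0.226 and 0.997. EPHA10, an Eph receptor gene, fell under the filter on low counts, with 0.217 to 0.537 CPM (counts scaled to 1000000 reads, on library sizes adjusted by TMM, the trimmed mean of M-values) with miR-101 and 0.310 to 0.604 CPM in the negative control.

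**Figure D1:**
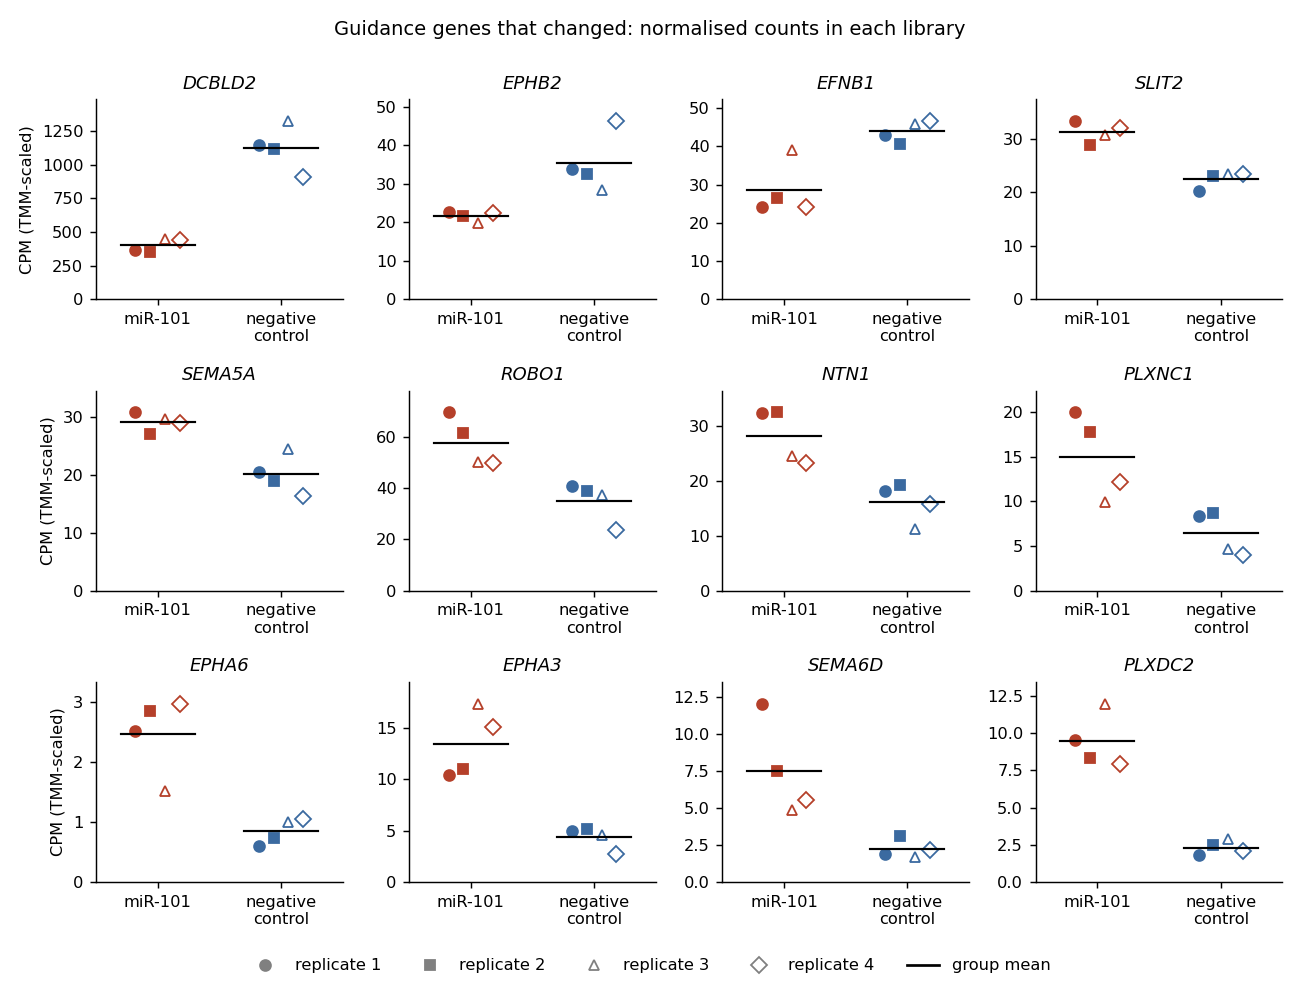
Normalised counts (CPM, TMM-scaled) of the 12 called guidance genes in each of the 8 libraries, miR-101 in red and negative control in blue, with a line at each group mean and a marker for each replicate number. In every panel all 4 miR-101 libraries lie on the same side of all 4 negative control libraries: below them for DCBLD2, EPHB2 and EFNB1 and above them for the other 9 genes.

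The libraries did not stand equally far apart. Replicates 1 and 2 of each group were close to each other, with a chi-square per degree of freedom over genes of 3.82 for miR-101 and 4.73 for the negative control, beside 14.5 to 70.9 for the other pairs within a group; no pair held identical counts. They differed by more than counting noise, which does not show that they are independent. They were kept as separate samples because the labels describe independent transfections. Each called member is also given from a fit with replicates 1 and 2 of each group summed to 1 sample. EZH2, which encodes the histone methyltransferase of Polycomb complex 2 and is a known miR-101 target, fell to 28.1 ± 2.09 CPM with miR-101, against 45.7 ± 5.12 CPM in the negative control (SD, n = 4 each; log2 fold change -0.70 ± 0.11 SE, adjusted p = 0.00561 in edgeR). Of the marker genes that check the cells' identity, 6 of 10 mesenchymal and osteoblast markers were measured (VIM, COL1A1, COL5A1, SPARC, RUNX2 and FN1), summing to 1193 to 2352 CPM with miR-101 and 1212 to 1843 CPM in negative control libraries. The others of the 10, COL1A2, THY1 and the osteoblast genes ALPL and SP7, had no value here. Neuronal markers (4 of 7 measured: SYP, SNAP25, MAP2 and TUBB3) summed to 8.76 to 11.3 CPM with miR-101 and 6.77 to 10.2 CPM in negative control libraries. Epithelial markers (3 of 7 measured: EPCAM, CLDN3 and ESRP1) summed to 11.2 to 18.6 CPM with miR-101 and 6.65 to 11.9 CPM in negative control libraries, and their part in the results was not tested. PECAM1, the measured 1 of 5 endothelial markers, lay at 0.867 to 2.04 CPM with miR-101 and 0.860 to 3.96 CPM in negative control libraries, and none of the 6 leukocyte markers had a value here. In such bulk samples, fewer cells that express a gene and less RNA per cell cannot be told apart.

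Of the 15 semaphorin ligands 2 were called, SEMA6D and SEMA5A, and both rose with miR-101. SEMA6D, a transmembrane semaphorin that binds plexin A receptors, had 12.1, 7.496, 4.85 and 5.58 CPM in miR-101 replicates 1 to 4, against 1.92, 3.08, 1.68 and 2.15 CPM in negative control replicates 1 to 4. The lowest miR-101 library lay above the highest control library, and miR-101 replicate 1 was the highest of all. The change was 3.37-fold (log2 fold change 1.75 ± 0.31 SE, adjusted p = 0.00779 in edgeR), and it stayed called whichever library was left out and with replicates summed (adjusted p = 0.0469). The gene lies on chromosome 15 at 47184101 to 47774223, plus strand, and its 7mer-A1 is printed above. SEMA5A, a transmembrane semaphorin with thrombospondin repeats and a ligand of plexin B3, had 30.9, 27.1, 29.8 and 28.98 CPM with miR-101, against 20.6, 19.1, 24.5 and 16.4 CPM in the negative control. All miR-101 libraries lay above all control libraries, with control replicate 3 nearest to them. The change was 1.45-fold (log2 fold change 0.54 ± 0.13 SE, adjusted p = 0.0350 in edgeR). It was no longer called without any of the 4 miR-101 replicates or without control replicate 1 or 2 (adjusted p between 0.0688 and 0.110) or with replicates summed (0.206). SEMA5A lies on chromosome 5 at 9035026 to 9546075, minus strand.

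SEMA7A, a semaphorin held at the membrane by a lipid anchor, was the highest semaphorin per exon length over all 8 libraries, with 10.2 ± 2.14 CPM per kb with miR-101 and 14.2 ± 2.95 CPM per kb in negative control libraries (SD, n = 4 each). It made up 20.3% ± 5.12 of the summed semaphorin level with miR-101 and 28.0% ± 5.26 in the negative control. Its values were 31.2, 33.5, 49.1 and 41.2 CPM with miR-101, against 49.2, 53.2, 43.5 and 69.6 CPM in the negative control. Replicate 3 went against the other pairs, and the groups overlapped (log2 fold change -0.48 ± 0.18 SE, adjusted p = 0.142 in edgeR). SEMA3C, a secreted semaphorin known in heart outflow development, had 46.8, 44.1, 25.4 and 39.5 CPM with miR-101, against 26.1, 31.2, 22.8 and 30.6 CPM in the negative control. Each miR-101 library lay above the control of its number, but the groups overlapped through miR-101 replicate 3 (adjusted p = 0.148, and 0.0348 without that library). SEMA3B, a secreted semaphorin described as a tumour suppressor in lung cancer, had 1.29, 1.30, 1.08 and 0.758 CPM with miR-101, against 2.20, 2.04, 1.24 and 2.29 CPM in the negative control. Its groups overlapped through control replicate 3 (log2 fold change -0.82 ± 0.26 SE, adjusted p = 0.0891, and 0.0325 without that library).

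SEMA3A, the secreted semaphorin that collapses growth cones through neuropilin-1 and plexin A receptors, was abundant at 10.4 ± 1.14 CPM per kb with miR-101 and 12.6 ± 2.39 CPM per kb in negative control libraries. Its 8mer is printed above, and its log2 fold change was -0.27 ± 0.15 SE (adjusted p = 0.307 in edgeR). SEMA6B, a transmembrane ligand of plexin A receptors, averaged 24.4 ± 6.41 CPM with miR-101 and 16.7 ± 5.77 CPM in negative control libraries (adjusted p = 0.258, and 0.0481 with the replicate block). The other 8 semaphorins, SEMA3D, SEMA3F, SEMA4B, SEMA4C, SEMA4D, SEMA4F, SEMA6A and SEMA6C, had log2 fold changes of 0.06, 0.15, 0.26, 0.14, -0.17, 0.15, 0.54 and 0.02 and were not called. The log2 fold change was above 0 in 11 of the 15 semaphorins and below it in 4, but the signs of SEMA3D, SEMA3F, SEMA4F and SEMA6C differed when libraries were left out or summed, while none differed with DESeq2's size factors.

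**Figure D2:**
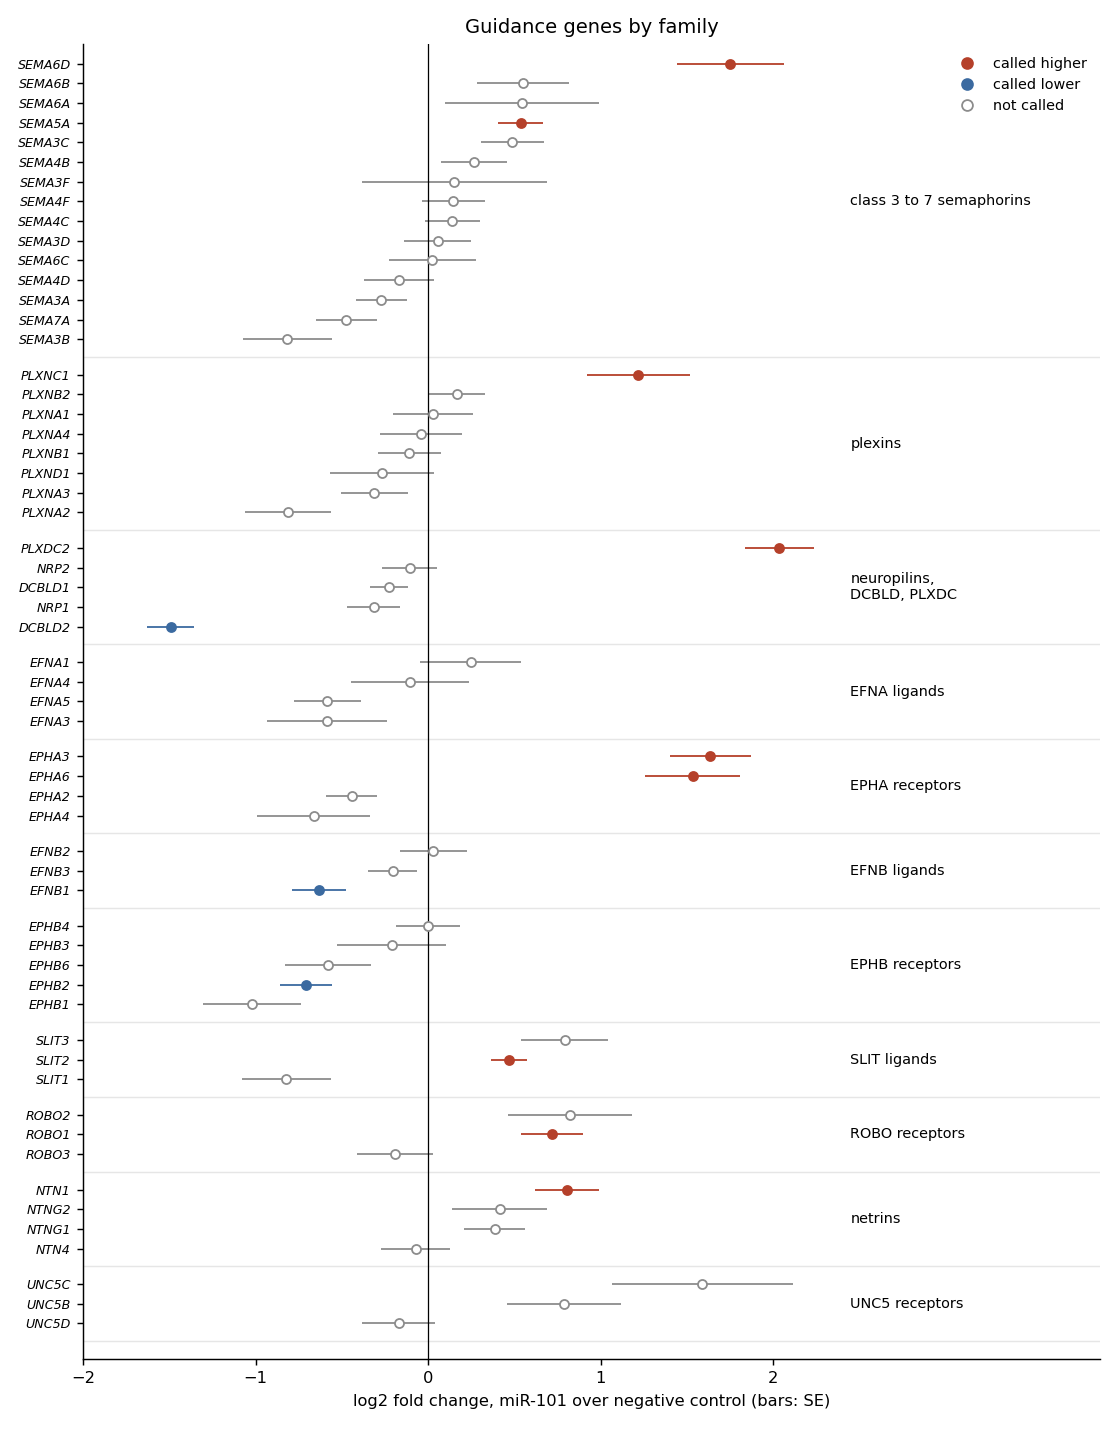
Log2 fold change of miR-101 over negative control (dots, with bars of 1 SE) for the 57 tested guidance genes, grouped by family, with red dots called higher, blue dots called lower and open dots not called. The called changes reach from -1.49 in DCBLD2 to 2.04 in PLXDC2, and within most families called genes sit beside uncalled genes on the other side of 0.

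Of the 8 plexins 1 rose, PLXNC1, the receptor of SEMA7A. It had 20.01, 17.8, 9.89 and 12.2 CPM with miR-101, against 8.35, 8.72, 4.65 and 3.97 CPM in the negative control. Replicates 1 and 2 were higher than 3 and 4 in both groups, and miR-101 replicate 3 still lay above every control library. The change was 2.33-fold (log2 fold change 1.22 ± 0.30 SE, adjusted p = 0.0344 in edgeR), and the call was lost when miR-101 replicate 1 or 2, or control replicate 3, was left out (adjusted p between 0.0648 and 0.108) or replicates were summed (0.132). PLXNC1 lies on chromosome 12 at 94148723 to 94307675, plus strand, and 177 bases of its 3′ UTR are shared with CEP83, a centrosomal gene on the other strand. Use of strand in counting is not given in the sources used here, so reads of these bases cannot be told apart. CEP83 averaged 45.6 ± 5.64 CPM with miR-101 and 40.9 ± 4.14 CPM in negative control libraries (log2 fold change 0.16 ± 0.12 SE, adjusted p = 0.468 in edgeR).

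PLXNA1, a receptor for class 3 semaphorins with neuropilins, was the most abundant plexin per exon length, at 12.4 ± 3.78 CPM per kb with miR-101 and 12.2 ± 2.62 CPM per kb in negative control libraries. It held 53.3% ± 3.44 of the summed plexin level with miR-101 and 54.5% ± 2.46 in the negative control. Despite its 8mer, its values of 158.7, 154.4, 157.5 and 74.2 CPM with miR-101 and 142.3, 169.9, 105.8 and 116.0 CPM in the negative control overlapped (log2 fold change 0.03 ± 0.23 SE, adjusted p = 0.961 in edgeR). PLXNA2, a related receptor, had 9.44, 6.95, 10.6 and 5.09 CPM with miR-101, against 11.04, 10.7, 17.1 and 17.4 CPM in the negative control. The groups did not overlap, although miR-101 replicate 3 came close to control replicate 2, and the change missed the threshold (log2 fold change -0.81 ± 0.25 SE, adjusted p = 0.0814 in edgeR and 0.0219 in DESeq2). PLXNB2, a receptor of class 4 semaphorins, averaged 41.0 ± 8.12 CPM with miR-101 and 36.5 ± 5.00 CPM in negative control libraries. PLXND1, known as a vascular receptor, averaged 17.9 ± 6.97 CPM with miR-101 and 21.6 ± 5.70 CPM in negative control libraries. PLXNA3, PLXNA4 and PLXNB1 stayed between 1.73 and 9.74 CPM in every library, with log2 fold changes of -0.31, -0.04 and -0.11.

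The neuropilin, DCBLD and PLXDC genes held the largest fall and, among the 12 called members, the largest rise. DCBLD2, a neuropilin-like membrane protein also named ESDN, had 364.4, 351.6, 445.4 and 437.6 CPM with miR-101, against 1149.9, 1119, 1326 and 907.9 CPM in the negative control. Even the highest miR-101 library, replicate 3, lay far below the lowest control library, replicate 4. The gene fell 2.82-fold (log2 fold change -1.49 ± 0.14 SE, adjusted p = 0.000542 in edgeR), with adjusted p values of at most 0.00400 whichever library was left out and 0.0129 with replicates summed. DCBLD2 was the most abundant member per exon length, at 35.5 ± 4.31 CPM per kb with miR-101 and 99.8 ± 15.2 CPM per kb in negative control libraries, and its share of the summed level of these 5 genes was 66.1% ± 3.04 with miR-101 and 82.7% ± 1.78 in the negative control. It lies on chromosome 3 at 98795941 to 98901689, minus strand, and 235 of its 11274 exon bases, none of them among the 3431 bases of the 3′ UTR, are shared with ST3GAL6 on the other strand. ST3GAL6, which encodes a sialyltransferase, was also lower, at 14.1 ± 2.13 CPM against 25.8 ± 4.66 CPM in the negative control (log2 fold change -0.87 ± 0.16 SE, adjusted p = 0.00935 in edgeR), at a level far under that of DCBLD2. Reads of the shared bases cannot be told apart here either. Whether the ST3GAL6 value changed apart from reads of DCBLD2 was not tested.

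PLXDC2, a transmembrane protein with a plexin-like domain and a described receptor of the factor PEDF, had 9.55, 8.35, 11.99 and 7.91 CPM with miR-101, against 1.81, 2.46, 2.85 and 2.10 CPM in the negative control. The lowest miR-101 library was more than 2-fold above the highest control library. The rise was 4.10-fold (log2 fold change 2.04 ± 0.20 SE, adjusted p = 0.000612 in edgeR) and held whichever library was left out and with replicates summed (adjusted p = 0.0129); no seed match was found. The gene lies on chromosome 10 at 19816239 to 20289856, plus strand. It shares exon bases with AL353147.1 on the other strand, as do SEMA5A with AC021088.1 and EPHB2 with MIR4253. Under these names the overlapping genes had no value here, and reads of the shared bases cannot be told apart. NRP1, the co-receptor of SEMA3A and of VEGF, had 109.5, 103.4, 120.5 and 103.8 CPM with miR-101, against 153.4, 150.7, 147.8 and 92.5 CPM in the negative control. Control replicate 4 lay below all miR-101 libraries and the other 3 controls lay above them, so the 8mer-bearing NRP1 was not called (log2 fold change -0.32 ± 0.15 SE, adjusted p = 0.260 in edgeR), and without that library it was (-0.46, adjusted p = 0.0117). NRP2, the co-receptor of SEMA3F, averaged 41.7 ± 7.79 CPM with miR-101 and 44.9 ± 6.78 CPM in negative control libraries. DCBLD1, the paralog of DCBLD2 and without a seed match, averaged 33.2 ± 1.57 CPM with miR-101 and 38.8 ± 4.85 CPM in negative control libraries (log2 fold change -0.23 ± 0.11 SE, adjusted p = 0.265 in edgeR).

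**Figure D3:**
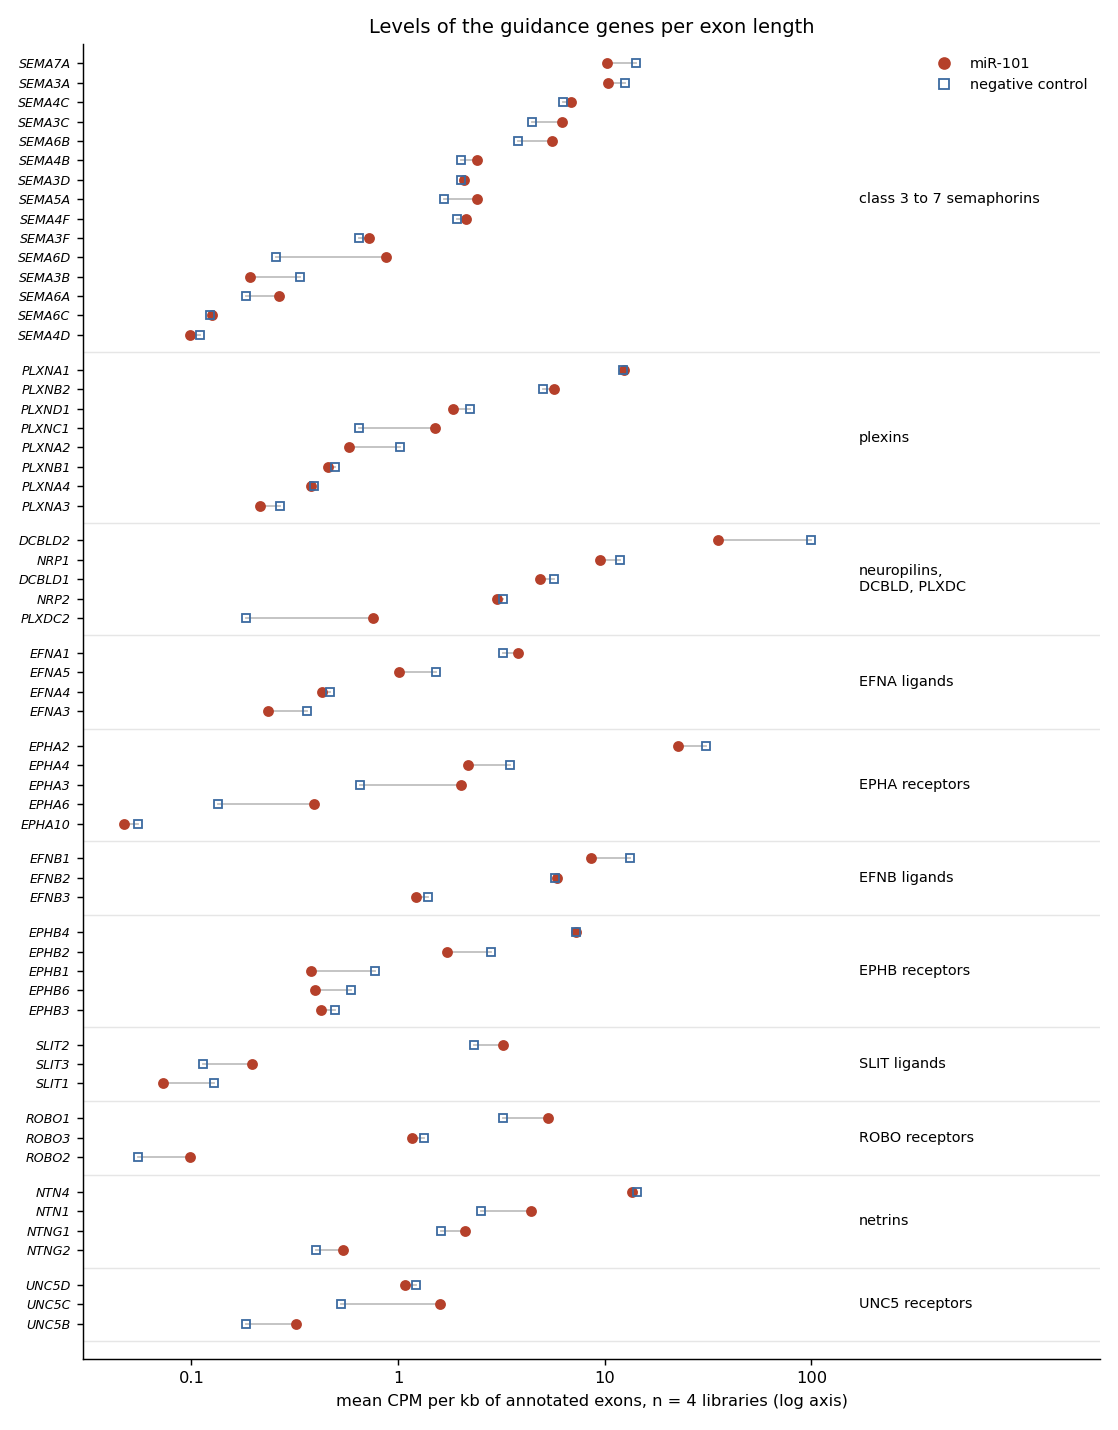
Mean level of each of the 58 guidance genes in CPM per kb of annotated exons (log axis), miR-101 as filled red dots and negative control as open blue squares, joined by a line (n = 4 libraries each). DCBLD2 is the highest gene in both groups, at 35.5 with miR-101 and 99.8 in the negative control, while PLXDC2, EPHA6 and SEMA6D, which rose, remain under 1.

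The ephrins, the ligands of the Eph receptors, had 1 called gene among 7, EFNB1, which was lower. EFNB1, the transmembrane ligand of EphB receptors mutated in craniofrontonasal syndrome, had 24.3, 26.5, 39.0 and 24.1 CPM with miR-101, against 43.1, 40.6, 45.9 and 46.7 CPM in the negative control. All miR-101 libraries lay below all controls, but replicate 3 was near them. The fall was 1.55-fold (log2 fold change -0.63 ± 0.16 SE, adjusted p = 0.0374 in edgeR), and it was the call lost most often among the 12: it did not hold when miR-101 replicate 1, 2 or 4 or any of the 4 controls was left out (adjusted p between 0.0509 and 0.119) or with replicates summed (0.207), and among the fits without a library was kept only without miR-101 replicate 3 (adjusted p = 0.00599). EFNB1 lies on chromosome X at 68828997 to 68842147, plus strand, was the highest ephrin per exon length (8.59 ± 2.14 CPM per kb with miR-101 and 13.3 ± 0.83 CPM per kb in negative control libraries) and holds no seed match.

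EFNB2, the ligand of EPHB4 in vessels, averaged 29.4 ± 2.598 CPM with miR-101 and 28.8 ± 8.82 CPM in negative control libraries (log2 fold change 0.03 ± 0.20 SE). EFNB3, a ligand known from midline guidance of axons, had 3.86, 3.65, 3.82 and 4.33 CPM with miR-101, against 4.56, 4.60, 4.47 and 4.45 CPM in the negative control. These groups did not overlap, and the difference was not called (log2 fold change -0.21 ± 0.14 SE, adjusted p = 0.425 in edgeR). Among the lipid-anchored A ephrins, EFNA1 was the highest per exon length, with 3.82 ± 1.13 CPM per kb with miR-101 and 3.21 ± 1.25 CPM per kb in negative control libraries. EFNA1 had 11.9, 12.3, 7.98 and 6.55 CPM with miR-101, against 11.5, 10.1, 4.90 and 6.07 CPM in the negative control. Each miR-101 library lay above the control of its number, and the groups overlapped (log2 fold change 0.25 ± 0.29 SE, adjusted p = 0.663 in edgeR). EFNA5, an 8mer-bearing ligand known from retinal map formation, had 5.63, 4.498, 7.93 and 5.04 CPM with miR-101, against 7.97, 8.78, 10.4 and 7.65 CPM in the negative control. Each miR-101 library was below the control of its number, but miR-101 replicate 3 reached into the control range (log2 fold change -0.59 ± 0.19 SE, adjusted p = 0.103 in edgeR). EFNA5 was called lower with the replicate block (adjusted p = 0.0359) or without miR-101 replicate 3 (adjusted p = 0.0392). EFNA3 and EFNA4 stayed between 0.268 and 1.06 CPM in every library and were not called.

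Of the 9 tested Eph receptors 2 rose, EPHA3 and EPHA6, and 1 fell, EPHB2. EPHA3, a receptor of A ephrins, had 10.5, 10.99, 17.4 and 15.1 CPM with miR-101, against 5.00, 5.12, 4.53 and 2.72 CPM in the negative control. Every miR-101 library was more than 2-fold above every control library, and replicates 3 and 4 differed more than 1 and 2. The rise was 3.11-fold (log2 fold change 1.64 ± 0.23 SE, adjusted p = 0.00312 in edgeR). EPHA6, a receptor best known from the nervous system, was low, with 2.52, 2.85, 1.52 and 2.98 CPM with miR-101, against 0.604, 0.731, 0.993 and 1.05 CPM in the negative control. The groups did not overlap, and the lowest library rested on 11 reads. The rise was 2.90-fold (log2 fold change 1.53 ± 0.28 SE, adjusted p = 0.00923 in edgeR). EPHA3 and EPHA6 lie on the plus strand of chromosome 3, at 89107524 to 89482134 and at 96814581 to 97752460, hold no seed match, and stayed called whichever library was left out. With replicates summed EPHA3 was called (adjusted p = 0.0312) and EPHA6 was not (0.0851).

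EPHA2, a receptor often abundant in tumour cells, held most of the summed EPHA level per exon length, 83.0% ± 1.47 with miR-101 and 87.2% ± 5.33 in the negative control. It had 90.4, 92.5, 100.2 and 94.9 CPM with miR-101, against 111.6, 121.0, 108.5 and 172.9 CPM in the negative control. The groups did not overlap, control replicate 4 stood highest, and the difference was not called (log2 fold change -0.44 ± 0.15 SE, adjusted p = 0.1003 in edgeR, and -0.27, adjusted p = 0.0880, without control replicate 4). EPHA4, which binds ephrins of both classes, had 21.1, 20.2, 15.4 and 9.32 CPM with miR-101, against 33.8, 34.2, 24.8 and 11.9 CPM in the negative control. Each miR-101 library lay below the control of its number while the groups overlapped (log2 fold change -0.66 ± 0.33 SE, adjusted p = 0.265 in edgeR). EPHA4 was called lower with the replicate block (adjusted p = 0.0135) or without control replicate 4 (adjusted p = 0.0470).

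EPHB2, a receptor of B ephrins such as EFNB1, had 22.7, 21.5, 19.7 and 22.4 CPM with miR-101, against 33.8, 32.5, 28.4 and 46.3 CPM in the negative control. The miR-101 libraries were tightly grouped below all controls, of which replicate 4 was the highest. The fall was 1.64-fold (log2 fold change -0.71 ± 0.15 SE, adjusted p = 0.0190 in edgeR), and it was lost without miR-101 replicate 1, 2 or 3 (adjusted p between 0.0545 and 0.0619) or with replicates summed (0.119). EPHB2 lies on chromosome 1 at 22710839 to 22921500, plus strand, with no seed match. EPHB4, the vascular receptor of EFNB2, was the highest EPHB gene per exon length, with 7.24 ± 1.27 CPM per kb with miR-101 and 7.24 ± 1.69 CPM per kb in negative control libraries. It had 53.2, 53.5, 42.8 and 36.9 CPM with miR-101, against 52.2, 51.9, 30.3 and 52.0 CPM in the negative control, with control replicate 3 the lowest. Its log2 fold change of -0.002 ± 0.19 SE changed sign in 9 of the 17 alternative fits. EPHB1, a receptor of B ephrins, had 2.20, 1.75, 3.08 and 3.52 CPM with miR-101, against 4.94, 5.49, 7.70 and 3.39 CPM in the negative control. Replicate 4 went against the other pairs (log2 fold change -1.02 ± 0.28 SE, adjusted p = 0.0587 in edgeR), and EPHB1 was called in DESeq2 (adjusted p = 0.0103) or without control replicate 4 (adjusted p = 0.0187). EPHB6, a receptor without kinase activity, had 2.41, 2.70, 1.86 and 1.46 CPM with miR-101, against 4.23, 3.34, 2.30 and 2.77 CPM in the negative control, and the groups overlapped (log2 fold change -0.58 ± 0.25 SE, adjusted p = 0.200 in edgeR). EPHB3, known from sorting of gut epithelium, averaged 1.92 ± 0.68 CPM with miR-101 and 2.24 ± 0.68 CPM in negative control libraries (adjusted p = 0.740 in edgeR).

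Among SLIT ligands and ROBO receptors, the most abundant gene of each family rose, SLIT2 and ROBO1, which are known as a ligand and its receptor. SLIT2 had 33.4, 28.8, 30.6 and 32.1 CPM with miR-101, against 20.3, 23.0, 23.5 and 23.5 CPM in the negative control. The groups were well apart and narrow, with control replicate 1 the lowest. The rise was 1.38-fold (log2 fold change 0.47 ± 0.10 SE, adjusted p = 0.0237 in edgeR), and it was lost without any of the miR-101 replicates or without control replicate 1 or 2 (adjusted p between 0.0539 and 0.0911) or with replicates summed (0.169). SLIT2 lies on chromosome 4 at 20253260 to 20620561, plus strand, and held 92.3% ± 1.67 of the summed SLIT level per exon length with miR-101 and 90.6% ± 0.89 in the negative control. ROBO1 had 69.6, 61.3, 50.2 and 49.8 CPM with miR-101, against 40.9, 38.8, 37.1 and 23.7 CPM in the negative control. Replicates 1 and 2 were the highest of their group on both sides, and the groups did not overlap. The rise was 1.64-fold (log2 fold change 0.72 ± 0.18 SE, adjusted p = 0.0369 in edgeR), and the call was lost when replicate 1, 2 or 3 of either group was left out (adjusted p between 0.0520 and 0.117) or replicates were summed (0.166). ROBO1 lies on chromosome 3 at 78597240 to 79767815, minus strand; neither gene holds a seed match.

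SLIT3, a ligand of the same family, had 3.22, 2.80, 3.43 and 1.79 CPM with miR-101, against 1.099, 1.93, 1.68 and 1.77 CPM in the negative control. Replicate 4 was nearly the same in both groups (log2 fold change 0.79 ± 0.25 SE, adjusted p = 0.0922 in edgeR, and 0.0419 without miR-101 replicate 4). SLIT1, the family member best known from brain, had 0.912, 0.5497, 0.636 and 0.542 CPM with miR-101, against 1.43, 1.25, 0.993 and 1.00 CPM in the negative control. These low values did not overlap and the difference was not called (log2 fold change -0.82 ± 0.26 SE, adjusted p = 0.0860 in edgeR). ROBO2, a neuronal receptor with an 8mer, had 1.66, 0.7496, 1.47 and 2.65 CPM with miR-101, against 0.659, 0.836, 1.18 and 1.004 CPM in the negative control, and replicate 2 went against the other pairs (log2 fold change 0.82 ± 0.36 SE, adjusted p = 0.206 in edgeR). ROBO3, known from midline crossing of axons, averaged 8.21 ± 1.08 CPM with miR-101 and 9.35 ± 3.21 CPM in negative control libraries (adjusted p = 0.651 in edgeR).

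NTN1 was the only called gene among the 4 netrins and 3 UNC5 receptors, and it rose. NTN1, the founding secreted netrin, had 32.4, 32.5, 24.5 and 23.2 CPM with miR-101, against 18.2, 19.2, 11.2 and 15.7 CPM in the negative control. Replicates 1 and 2 were the highest of their group on both sides, and the lowest miR-101 library exceeded the highest control. The rise was 1.75-fold (log2 fold change 0.81 ± 0.18 SE, adjusted p = 0.0268 in edgeR), and it was lost without miR-101 replicate 1 or 2 (adjusted p of 0.0904 and 0.0914 as lowest and highest) or with replicates summed (0.137). NTN1 lies on chromosome 17 at 9021542 to 9244000, plus strand, with no seed match. NTN4, a netrin of basement membranes, was the highest netrin per exon length, at 13.6 ± 3.53 CPM per kb with miR-101 and 14.3 ± 3.26 CPM per kb in negative control libraries. Its values of 57.7, 54.5, 39.3 and 75.1 CPM with miR-101 and 56.1, 54.0, 48.5 and 79.3 CPM in the negative control overlapped, with replicate 4 the highest in both groups (log2 fold change -0.07 ± 0.20 SE, adjusted p = 0.875 in edgeR). NTNG1 and NTNG2, which are held at the membrane by a lipid anchor, had log2 fold changes of 0.39 ± 0.18 and 0.41 ± 0.28 SE (adjusted p = 0.226 and 0.409 in edgeR).

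UNC5C, a receptor for the repulsive response to netrin, had 20.5, 18.6, 19.8 and 9.15 CPM with miR-101, against 8.02, 9.04, 4.90 and 0.717 CPM in the negative control. Replicate 4 was the lowest of its group on both sides, and the lowest miR-101 library lay just above the highest control. The difference was not called without the block (log2 fold change 1.59 ± 0.52 SE, adjusted p = 0.1003 in edgeR), and was called with the replicate block (1.81, adjusted p = 0.0138) or without control replicate 4 (1.21, adjusted p = 0.0316). UNC5B, a receptor known in vessels, had 2.84, 2.35, 2.40 and 1.14 CPM with miR-101, against 1.48, 1.83, 0.869 and 0.860 CPM in the negative control. Each miR-101 library lay above the control of its number, and the groups overlapped through miR-101 replicate 4 (log2 fold change 0.79 ± 0.33 SE, adjusted p = 0.188 in edgeR). UNC5D, the highest UNC5 gene per exon length over all libraries, had 14.1, 14.5, 8.22 and 9.86 CPM with miR-101, against 15.3, 13.3, 14.5 and 9.51 CPM in the negative control, and the groups overlapped (adjusted p = 0.682 in edgeR). UNC5D made up 37.0% ± 8.90 of the summed UNC5 level per exon length with miR-101 (range 25.6% to 47.1%) and 65.9% ± 12.8 in the negative control (range 52.5% to 82.0%).

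Per exon length the members spanned from 0.0513 to 67.7 CPM per kb over all 8 libraries, with a median of 1.32; 23 members lay under 1 CPM per kb, 27 between 1 and 10, and 8 at 10 or more. The 8 were DCBLD2, EPHA2, NTN4, PLXNA1, SEMA7A, SEMA3A, EFNB1 and NRP1, in falling order. Of these, DCBLD2 and EFNB1 fell and the other 6 were not called. The order depends on the length used. Per kb of the longest transcript, NRP1 (20.9 CPM per kb) lay above NTN4 (16.1), and SEMA4C (10.7) also exceeded 10. Of the 9 genes that rose, PLXDC2, EPHA6 and SEMA6D lay under 1 CPM per kb.

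Fits without 1 library called 5, 5, 10 and 10 members when miR-101 replicate 1, 2, 3 or 4 was left out, against backgrounds of 3.06%, 3.07%, 4.3% and 5.28% of all tested genes. They called 8, 8, 10 and 15 members when negative control replicate 1, 2, 3 or 4 was left out, against 3.85%, 3.53%, 8.02% and 8.91%. DCBLD2, PLXDC2, EPHA3, EPHA6 and SEMA6D were called in all 8 of these fits. All 12 called members had the same sign of change in replicates 1 and 2 alone and in replicates 3 and 4 alone. Their groups do not overlap, which fixes the sign in advance, so this adds no support. The signs were also the same in 45 of the 57 tested members, these 12 included, and the share over all tested genes was not computed. DCBLD2 had log2 fold changes of -1.67 in replicates 1 and 2 and -1.34 in replicates 3 and 4. PLXDC2 had 2.05 in replicates 1 and 2 and 2.01 in replicates 3 and 4. EPHA3 had 1.08 in replicates 1 and 2 and 2.17 in replicates 3 and 4, so its change was larger in replicates 3 and 4, while EPHA6 (1.99 and 1.125) and SEMA6D (1.94 and 1.44) showed the reverse. With replicates 1 and 2 alone edgeR called 34 members, against a background of 32.4% of all tested genes. With replicates 3 and 4 alone it called 0 members against a background of 0.0379%, while 12 members had an unadjusted p under 0.05, 9 higher and 3 lower, against 7.95% of all tested genes, 4.38% higher and 3.57% lower. No other tool was run on those libraries.

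**Figure D4:**
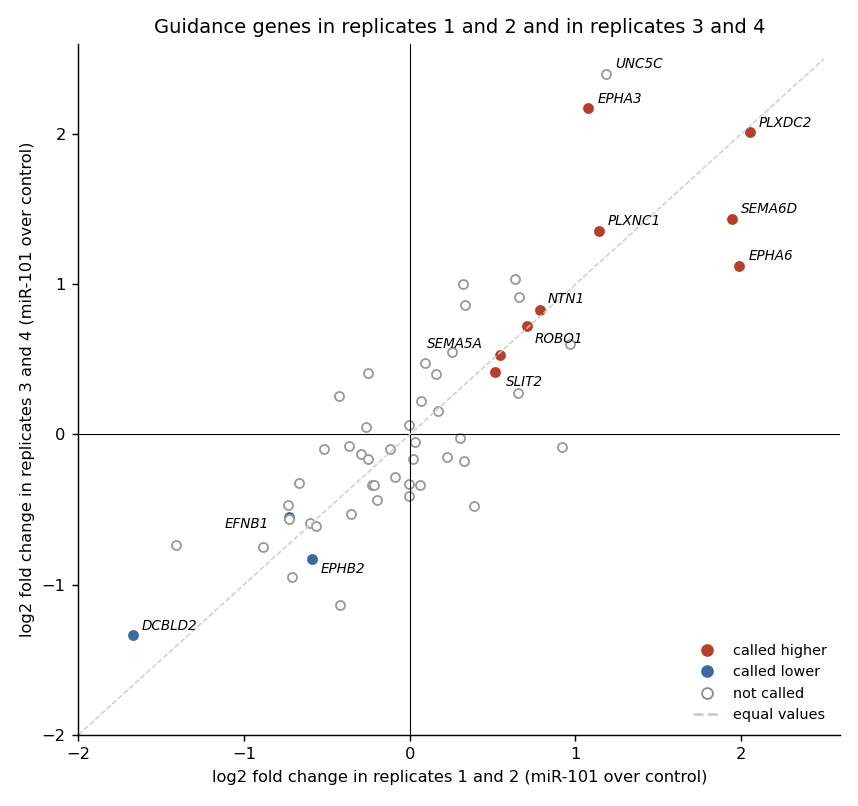
Log2 fold change (miR-101 over negative control) of each tested guidance gene in replicates 1 and 2 (horizontal) against replicates 3 and 4 (vertical), with called genes filled and a dashed line where the values are equal. PLXDC2 lies on the line at about 2, DCBLD2 near -1.5, and EPHA3 above the line with 1.08 and 2.17.

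Seed matches were spread over called and uncalled members. At least 1 match was found in 18 of the 58 members (31.0%), 6 with an 8mer, 6 with a 7mer-m8 and 6 with a 7mer-A1 as the strongest match, beside 23.8% of the 12469 genes of the table with an annotated 3′ UTR, of which 4.60% held an 8mer. The members' 3′ UTRs were longer, with a median of 2394 bases against 1455 bases over those genes. Of the 3 called members that fell, DCBLD2 held matches and EPHB2 and EFNB1 held none. Of the 9 that rose, SEMA6D and PLXNC1 held a 7mer-A1 and 7 held none. The 6 members with an 8mer, whose sites are printed above, had log2 fold changes of -1.49 (DCBLD2), -0.59 (EFNA5), -0.32 (NRP1), -0.27 (SEMA3A), 0.03 (PLXNA1) and 0.82 (ROBO2). Their median was -0.29, beside -0.26 over all 572 tested genes with an 8mer, of which 21.9% were called lower. For 7mer-m8 the medians were -0.14 in members and -0.10 in all such genes, for 7mer-A1 0.47 and 0.00, and without a match 0.02 and -0.01. A match of these letters is a description and was not tested as a site.

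**Figure D5:**
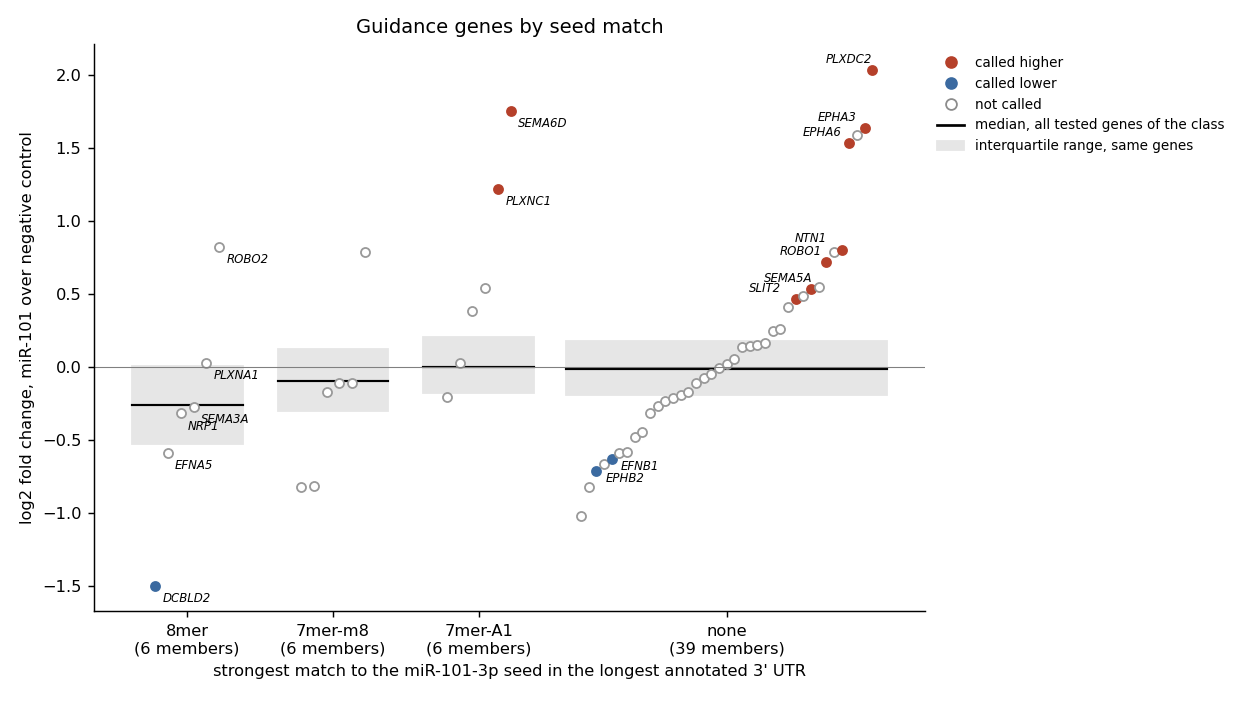
Log2 fold change (miR-101 over negative control) of the tested guidance genes by their strongest miR-101-3p seed match, with red dots called higher, blue dots called lower and open dots not called, over the median (line) and interquartile range (grey) of all tested genes of that class. DCBLD2 lies at -1.49 among the 6 members with an 8mer, and most called genes stand in the class without a match.

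The partners of these ligands and receptors were described by 4 lists of named genes, of which 133 distinct genes were tested and 14 were called, 8 higher and 6 lower. The lists were chosen with earlier results of these data known, so their counts and shares are descriptions only. Of the semaphorin and plexin signalling partners, 33 of 40 genes were tested and 2 were called, both lower (6.06% called, where 6.62% of all tested genes were). These were MET, the hepatocyte growth factor receptor that associates with B plexins, and GSK3B, a kinase that acts on collapsin response mediator proteins. MET averaged 200.9 ± 22.4 CPM with miR-101 and 300.2 ± 51.9 CPM in negative control libraries (SD, n = 4 each; log2 fold change -0.58 ± 0.14 SE, adjusted p = 0.0299 in edgeR). GSK3B averaged 57.2 ± 5.58 CPM with miR-101 and 84.0 ± 13.9 CPM in negative control libraries (log2 fold change -0.55 ± 0.13 SE, adjusted p = 0.0298 in edgeR). A negative log2 fold change was found in 27 of these 33 genes, and in the lists described next in 18 of 38 ephrin and Eph partners, 28 of 42 Slit, Robo, netrin and Unc5 partners and 18 of 38 other guidance genes, beside 50.7% of all tested genes.

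Of the ephrin and Eph signalling partners, 38 of 41 genes were tested, 3 rose and 2 fell (13.2% called). ADAM10, the protease that cleaves ephrins and their receptors, averaged 399.7 ± 11.9 CPM with miR-101 and 252.5 ± 60.2 CPM in negative control libraries (log2 fold change 0.66 ± 0.16 SE, adjusted p = 0.0369 in edgeR). STAT3, a transcription factor, averaged 215.3 ± 24.6 CPM with miR-101 and 131.5 ± 28.6 CPM in negative control libraries (log2 fold change 0.71 ± 0.16 SE, adjusted p = 0.0250 in edgeR). PIK3R1, a regulatory subunit of phosphoinositide 3-kinase, averaged 63.0 ± 6.76 CPM with miR-101 and 41.7 ± 3.97 CPM in negative control libraries (log2 fold change 0.60 ± 0.11 SE, adjusted p = 0.0124 in edgeR). The genes that fell encode an adaptor and a kinase. GRB10, the adaptor, had a log2 fold change of -0.62 ± 0.16 SE (adjusted p = 0.0407 in edgeR). SRC, the kinase, had a log2 fold change of -0.67 ± 0.17 SE (adjusted p = 0.0373 in edgeR).

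Of the Slit, Robo, netrin and Unc5 signalling partners, 42 of 47 genes were tested and 3 were called, all lower (7.14% called): SRC again, PTK2 and ABLIM3. PTK2, the focal adhesion kinase, averaged 145.2 ± 6.77 CPM with miR-101 and 211.2 ± 19.9 CPM in negative control libraries (log2 fold change -0.54 ± 0.10 SE, adjusted p = 0.0104 in edgeR). ABLIM3, an actin-binding LIM protein, averaged 6.01 ± 1.42 CPM with miR-101 and 14.2 ± 2.91 CPM in negative control libraries (log2 fold change -1.24 ± 0.21 SE, adjusted p = 0.00623 in edgeR).

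Of the other guidance ligands and receptors, 38 of 48 were tested, and the 5 called ones rose (13.2% called). CXCL12, a chemokine that guides migrating cells, had 2.25, 1.499, 1.81 and 1.73 CPM with miR-101, against 0.0549, 0.313, 0.372 and 0.335 CPM in the negative control. These levels are low, at only a few reads per library in the negative control, so the size of the change is uncertain. The groups did not overlap (log2 fold change 2.73 ± 0.36 SE, adjusted p = 0.00208 in edgeR). ACKR3, a receptor of CXCL12, averaged 3.80 ± 0.92 CPM with miR-101 and 1.37 ± 0.35 CPM in negative control libraries (log2 fold change 1.46 ± 0.25 SE, adjusted p = 0.00635 in edgeR). NCAM1, an adhesion molecule of nerve and muscle, averaged 56.5 ± 9.94 CPM with miR-101 and 30.0 ± 5.19 CPM in negative control libraries (log2 fold change 0.91 ± 0.16 SE, adjusted p = 0.00907 in edgeR). GAS1, a co-receptor of hedgehog ligands, averaged 9.38 ± 2.15 CPM with miR-101 and 4.66 ± 0.31 CPM in negative control libraries (log2 fold change 1.01 ± 0.18 SE, adjusted p = 0.00936 in edgeR). FZD3, a Wnt receptor known from axon growth, averaged 39.4 ± 1.16 CPM with miR-101 and 29.9 ± 2.74 CPM in negative control libraries (log2 fold change 0.40 ± 0.10 SE, adjusted p = 0.0412 in edgeR). CXCL12, ACKR3, NCAM1, GAS1, PIK3R1, ABLIM3 and PTK2 stayed called whichever library was left out, and the other 7 called list genes each lost their call without at least 1 library. With replicates 1 and 2 of each group summed, most of the 14 calls were lost, also among the genes that stayed called here. Those results are not given by gene. Leaving out miR-101 replicate 1, 2, 3 or 4 lost 7, 7, 5 and 5 of the 14 calls, and leaving out negative control replicate 1, 2 or 3 lost 3, 5 and 1, while all 14 held without negative control replicate 4. The adjusted p values of lost calls lay between 0.0514 and 0.127. MET was lost without miR-101 replicate 1, 2 or 3, GSK3B without control replicate 2 or without miR-101 replicate 1, 2 or 4, and STAT3 without miR-101 replicate 1 or 2. ADAM10 was lost without any miR-101 replicate or control replicate 2, SRC and FZD3 without any miR-101 replicate or control replicate 1 or 2, and GRB10 without any library but control replicate 4.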

How the data were processed

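Per the submitters' processing notes the tools included StringTie 1.2.4, TopHat2 2.0.14 and bcl2fastq 2.18.0.12, on build hg38. Libraries were made from ribosomal-RNA-depleted total RNA, per the labels' protocols. The authors deposited a table of raw read counts for 15982 genes in 8 libraries. How the reads were counted, with which annotation and whether by strand, is not stated there. Genes were matched by name or other symbol to GENCODE release 29 (all 58 members, 14398 rows of the table in all), from which coordinates, exon lengths and 3′ UTRs were taken. CPM are counts per 1000000 on TMM-adjusted library sizes, and levels per kb divide CPM by the union of annotated exons.

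The test was edgeR's (4.0.16, R 4.3.3; filterByExpr, TMM, quasi-likelihood fit, group only), with Benjamini-Hochberg adjustment over 15905 genes. DESeq2 1.42.0, limma-voom 3.58.1, other normalisation and filters, a replicate block, libraries left out and replicates 1 and 2 summed were tried in 17 alternative fits. The fit was tested on simulated data, with 50 genes at each size of change. It called 82% of genes with a true log2 fold change of 1 and 82% at -1. At 0.5 it called 10% and at -0.5 it called 14%, so a gene not called can still have changed by that amount. Of genes without a change 0.058% were called. Same-numbered libraries deviated together from their group means (correlations over genes 0.328, 0.425, 0.185 and 0.209 for numbers 1 to 4). The control of the same number was the best match for 2 of the 4 miR-101 libraries. The best match of miR-101 replicate 1 was control replicate 2, and that of miR-101 replicate 4 was control replicate 3. The replicates came from separate transfection experiments, per the labels' protocols. The numbers were taken as a possible pairing, which the replicate block used. The main test did not use it, so its p values ignore any pairing. By rule, per-library values were given for called members, for members with an unadjusted p under 0.05 and for the highest gene of each family per exon length, other members were given by means or ranges, and of each list every called gene was named. Per-library values of EPHA4, EFNB3 and NRP1 were added after their values were seen. Members and lists were chosen with earlier results of these data known. Another list of genes is not reported here.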

Additional observations from a re-analysis of the deposited data

Results flagged for a closer look

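In 10 of the 116 groups of 4 libraries (58 members in 2 groups) a single library stood far from the other 3, by Dixon's gap test at its 95% critical value. Chance gives about 1 in 20 groups. Of the called members this held for EFNB1, at 39.0 CPM in miR-101 replicate 3 where the other miR-101 libraries lay between 24.1 and 26.5 CPM, and for SLIT2, at 20.3 CPM in negative control replicate 1 where the other controls lay between 23.0 and 23.5 CPM. In miR-101 replicate 4, PLXNA1 was at 74.2 CPM (others 154.4 to 158.7), PLXNB2 at 28.98 CPM (others 44.2 to 46.7), SEMA6B at 14.8 CPM (others 27.3 to 28.1) and UNC5C at 9.15 CPM (others 18.6 to 20.5). In miR-101 replicate 3, PLXNA4 was at 9.74 CPM (others 4.70 to 5.47). In negative control replicate 4, NRP1 was at 92.5 CPM (others 147.8 to 153.4) and SEMA4D at 1.91 CPM (others 1.41 to 1.48). In negative control replicate 3, EPHB4 was at 30.3 CPM (others 51.9 to 52.2).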

How the results depend on the processing

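The 12 calls, 9 higher and 3 lower, were also made with DESeq2's size factors, without a filter and with at least 1 CPM in 4 libraries, and limma-voom called 12 members (background 6.66%). DESeq2 called 14 members (10.8%), 5 of them lower. The replicate block called 16, with EFNA5 and EPHA4 added among 5 lower, SEMA6B and UNC5C added among the higher, and no other member's call changed. Replicates 1 and 2 alone gave 34 calls, 17 higher and 17 lower, replicates 3 and 4 alone 0 in edgeR (with unadjusted p under 0.05, 9 were higher and 3 lower; no other tool was run there), and replicates 1 and 2 summed gave 4, 3 higher and 1 lower. Leaving out a library gave 5 to 15 member calls (4 to 10 higher, 1 to 5 lower), against a background of 3.06% to 8.91%. Of all genes, 1053 were called, against 1712 in DESeq2, 1676 with the block, 5126 with replicates 1 and 2, 6 with replicates 3 and 4, 173 with replicates 1 and 2 summed and 488 to 1419 without a library. Of the list genes 14 were called, against 25 in DESeq2, 23 with the block, 62 with replicates 1 and 2, 0 with replicates 3 and 4 in edgeR (18 with unadjusted p under 0.05), 3 with replicates summed and 7 to 21 without a library. The median over members within each library, averaged over the 8 libraries (and so not the median of the members' mean levels, 1.32), was 1.51 CPM per kb of exons and 1.77 per kb of the longest transcript. The cause of these differences was not tested.

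PLXDC2 had the largest log2 fold change over 8 libraries in edgeR (2.04), but UNC5C exceeded it in limma-voom (2.05 against 2.03) and with replicates 3 and 4 alone (2.40 against 2.01), and SEMA6D without miR-101 replicate 3. The groups of the called members did not overlap, so log2 fold changes that changed sign all belonged to uncalled members. With replicates 1 and 2 alone these were EFNA4 (0.065), EFNB2 (-0.25), EPHB4 (0.029), NTN4 (0.021) and PLXNA1 (-0.0019). With replicates 3 and 4 alone they were NTNG2 (-0.087), PLXNA4 (0.25), PLXNB1 (0.050), SEMA3D (-0.18), SEMA3F (-0.48), SEMA4F (-0.023) and SEMA6C (-0.15). With replicates 1 and 2 summed they were PLXNA4 (0.052), SEMA3D (-0.024) and SEMA6C (-0.013). EPHB4 reached 0.0027 with at least 1 CPM, 0.012 in limma-voom and 0.016 with the replicate block, and PLXNA1 reached -0.013 in limma-voom and -0.011 with that block. Ranges without a library that crossed 0 were EFNA4 -0.30 to 0.10, EFNB2 -0.10 to 0.17, EPHB3 -0.39 to 0.0077, EPHB4 -0.17 to 0.088, NRP2 -0.19 to 0.011, NTN4 -0.24 to 0.098, PLXNA1 -0.073 to 0.23, PLXNA4 -0.36 to 0.069, ROBO3 -0.31 to 0.078, SEMA3D -0.055 to 0.25, SEMA3F -0.18 to 0.43 and SEMA6C -0.050 to 0.20. Depth limits some of the members under 1 CPM per kb, down to 4 reads in a library for EPHA10, which the main fit did not test. Others under 1 CPM per kb rest on more reads, such as PLXNA2 with 94 or more in every library.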
